A study of Mus musculus with 24 samples.

Results

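The complement components and receptors described here are 10 genes, taken by name from the 48820 gene entries of each of 4 count tables of mouse liver RNA-seq. They are the C1q chain genes C1qa, C1qb and C1qc, the convertase genes C2 and Cfb, the central component C3, properdin (Cfp), the terminal component C6, and the receptor genes C3ar1 and Vsig4. Each symbol named 1 entry in each table. The study asked what the ligands GDF2 (BMP9) and BMP10, made by hepatic stellate cells (HSCs), do for liver macrophages, liver endothelial cells (ECs) and whole liver. Here the comparisons ask which of these cells holds the transcript of each complement gene, and how that transcript differed when Gdf2 and Bmp10 were deleted in HSCs or Smad4, a mediator of BMP signaling, was deleted in hematopoietic cells.

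All mice were C57BL/6. Gdf2/Bmp10 HSC-KO mice carry floxed Gdf2 and Bmp10 alleles and Lrat-Cre, which is active in HSCs, and were compared with mice labelled as BMP9/10 control or control. Smad4 cKO mice carry floxed Smad4 and Vav1-Cre, which is active in hematopoietic cells generally and so not in macrophages alone, and were compared with mice labelled Smad4FF. The sort gates were CD45+Ly6C-F4/80+CD64+ for liver macrophages and CD45-CD31+ for ECs, both from mice aged 8 to 10 weeks, and liver tissue came from mice aged 12 weeks. There were 3 libraries in each of 8 groups, which makes 24 libraries, and each library within a table carries an animal code of its own. By these codes 3 mice supplied ECs as well as macrophages.

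Complement is a set of plasma proteins that label particles for uptake and can lyse them. C1q recognizes bound antibody and dying cells and starts the classical pathway, C2 and factor B supply the proteases of the classical and the alternative C3 convertase, C3 is the protein both cleave, properdin stabilizes the alternative convertase, and C6 is part of the membrane attack complex. C3ar1 is the receptor for the C3a fragment, and Vsig4 (CRIg) is the receptor by which Kupffer cells, the resident macrophages of the liver, bind particles coated with C3b. Hepatocytes make most circulating complement proteins, whereas C1q and properdin are known as products of macrophages and other myeloid cells.

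In the GENCODE vM21 annotation of GRCm38, the C1q genes lie side by side on the minus strand of chromosome 4, C1qb at chr4:136880129-136886187, C1qc at chr4:136889804-136893065 and C1qa at chr4:136895917-136898803, within 18675 bases. C2 (chr17:34862604-34898265) and Cfb (chr17:34856374-34862518) are also neighbours on the minus strand, 85 bases apart, and C3 lies farther along the same chromosome at chr17:57203970-57228136. C6 is at chr15:4727175-4814967 on the plus strand and C3ar1 at chr6:122847138-122856161 on the minus strand. Cfp (chrX:20925454-20931555) and Vsig4 (chrX:96247203-96293438) are X-linked. The annotated gene Gm20547 overlaps both C2 and Cfb on the same strand, sharing 1656 exon bases with C2 and 2246 with Cfb. In the macrophage, EC and liver libraries Gm20547 was listed at 0 counts, except for 41 counts in Smad4 cKO replicate 3. How reads shared with it were treated is not given in the sources used here, so the levels of C2 and Cfb carry that uncertainty.

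The 250 bases before the transcription start of 4 members are printed because these genes behaved differently in macrophages: Vsig4 and Cfp fell in both mutants, C1qb passed the test in neither, and C3ar1 was higher in HSC-KO macrophages. Sequences are from RefSeq on GRCm38.p6, given 5′ to 3′ on the strand of the gene, which is the minus strand for all 4. They span chrX:96293439-96293688 for Vsig4, chrX:20931556-20931805 for Cfp, chr4:136886201-136886450 for C1qb and chr6:122856158-122856407 for C3ar1. Capitals mark GAGGAA, the core bound by the myeloid factor PU.1, and CAGAC, the box bound by SMAD proteins, each searched on both strands.
Vsig4: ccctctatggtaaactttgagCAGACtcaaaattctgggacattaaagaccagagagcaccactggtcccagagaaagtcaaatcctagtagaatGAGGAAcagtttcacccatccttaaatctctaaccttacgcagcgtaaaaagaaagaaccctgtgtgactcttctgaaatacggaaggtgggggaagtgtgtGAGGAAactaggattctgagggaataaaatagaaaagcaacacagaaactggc
Cfp: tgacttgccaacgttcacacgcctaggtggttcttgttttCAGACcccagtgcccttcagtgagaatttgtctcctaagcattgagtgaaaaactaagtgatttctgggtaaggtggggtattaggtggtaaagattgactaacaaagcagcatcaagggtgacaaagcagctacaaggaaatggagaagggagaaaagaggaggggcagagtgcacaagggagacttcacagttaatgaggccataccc
C1qb: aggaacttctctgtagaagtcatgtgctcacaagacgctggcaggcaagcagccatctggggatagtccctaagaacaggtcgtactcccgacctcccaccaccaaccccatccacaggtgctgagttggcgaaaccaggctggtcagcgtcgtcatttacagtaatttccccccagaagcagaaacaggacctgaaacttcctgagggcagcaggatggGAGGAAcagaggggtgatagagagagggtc
C3ar1: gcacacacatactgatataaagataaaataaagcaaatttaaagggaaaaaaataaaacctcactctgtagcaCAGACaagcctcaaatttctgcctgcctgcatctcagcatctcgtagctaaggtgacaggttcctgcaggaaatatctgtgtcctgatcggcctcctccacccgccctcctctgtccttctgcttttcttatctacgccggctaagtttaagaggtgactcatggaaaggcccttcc
The table of promoters had an entry for 7 of the 10 members. GAGGAA was found in 3 of these 7, with 2 matches in Vsig4 that begin at positions -155 and -53 from the start and 1 match each in C1qb and C1qc, and it was found in 23.3% of all 32851 windows of this length. CAGAC was found in 4 of the 7 (Vsig4, Cfp, C3ar1 and C1qc) and in 42.2% of all windows. GGCGCC, a GC-rich element bound by SMAD proteins, was found in none of the 7 and in 9.59% of all windows. C3 and C6 held none of these letters in the window.

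Total counts ran from 60911527 to 110879155 per library, so 3 counts, taken as the floor of detection, equal 0.0271 to 0.0493 CPM (counts per 1000000 counts of the library). In livers Gdf2 fell from 9.74–22.9 to 2.10–3.61 CPM and Bmp10 from 2.03–3.48 to 0.0880–0.259 CPM in HSC-KO mice (edgeR's quasi-likelihood test, adjusted p = 0.013 and 0.0066), and in macrophages Smad4 fell from 33.0–40.6 to 13.2–18.3 CPM in Smad4 cKO mice (edgeR adjusted p = 0.0023). The 5 genes that define macrophages (Adgre1, Fcgr1, Cd68, Csf1r and Ptprc) summed to 5250–10200 CPM in macrophages, 1.40–11.7 CPM in ECs and 33.5–189 CPM in livers, and the 5 that define ECs to 4320–5850 CPM in ECs. The endothelial list summed to 609–1900 CPM in the Smad4 experiment's macrophages and 276–495 CPM in control macrophages and 78.0–160 CPM in those of HSC-KO mice. Sex differed among libraries: Ddx3y, a Y-linked gene, was above 1 CPM in all 6 Smad4 experiment libraries, in 2 control and 1 HSC-KO library of macrophages and again of ECs, and in liver in HSC-KO replicate 3 alone.

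In control macrophages the C1q genes were the most abundant members per length. Expressed as CPM per kilobase of exon, C1qb stood at 6370 ± 180 (SD, n = 3), C1qa at 3330 ± 61.1 and C1qc at 2850 ± 14.6, followed by Vsig4 at 2350 ± 44.4 and Cfp at 2060 ± 139. C6 (258 ± 40.5), Cfb (139 ± 31.6), C3ar1 (106 ± 5.05), C2 (41.7 ± 8.85) and C3 (16.2 ± 3.34) were far lower, and no neighbours in this order overlapped between libraries. In Smad4FF macrophages the order was similar, with Cfp (2830 ± 655) before Vsig4 (1950 ± 150), and C1qa and C1qc, C1qc and Cfp, and Cfb and C3ar1 overlapped.

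In control livers the order was led by the proteins that hepatocytes secrete. C3 stood at 2410 ± 18.1 and Cfb at 494 ± 10.8 CPM per kilobase, against 47.0 ± 9.10 for C1qa, 45.0 ± 6.89 for C1qb and 25.9 ± 5.09 for C1qc. C2 (25 ± 1.43), Vsig4 (24.7 ± 7.48) and Cfp (19.9 ± 5.69) overlapped in turn, and C6 (7.05 ± 2.16) and C3ar1 (0.955 ± 0.215) were lowest. In control ECs C1qb led at 22.2 ± 4.32 CPM per kilobase, and the remaining members ran from 8.60 ± 3.73 for Cfb to 0.231 ± 0.136 for C6, with neighbours overlapping except C3 (1.43 ± 0.532) and C3ar1 (0.351 ± 0.0992).

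**Figure D1:**
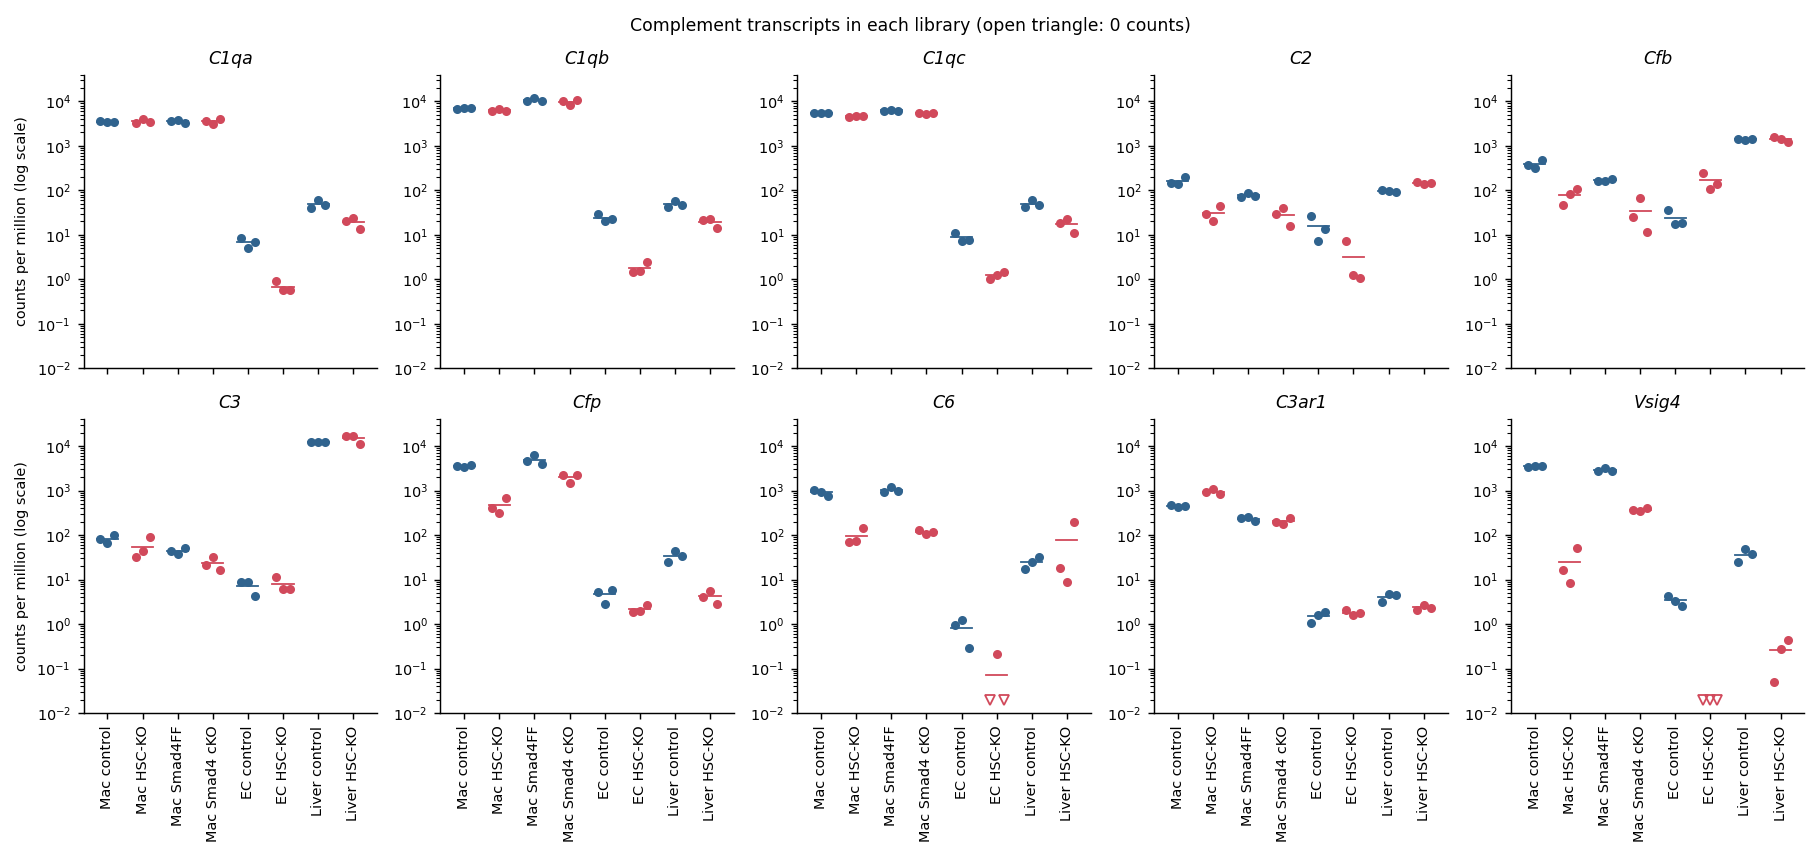
CPM (log axis) of each complement gene in each of the 24 libraries, by group, with a bar at the mean of 3 libraries; blue marks control and Smad4FF libraries, red HSC-KO and Smad4 cKO libraries, and open triangles 0 counts. C3 and Cfb are highest in livers, the other members except C2 are 36.6 to 142 times higher in control macrophages than in control livers, and Vsig4 has 0 counts in the 3 HSC-KO EC libraries.

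The source cells were compared with the same test between control groups, in which cell type and count table cannot be told apart, and whose control libraries also serve in the comparisons that follow. A gene was called, here and throughout, when its adjusted p was under 0.05 and its log2 fold change exceeded 1 in either direction. All 10 members were called higher in control macrophages than in control ECs, where 35.9% of all genes tested were called, 18% higher and 17.9% lower. The log2 differences ran from 3.48 ± 0.44 (SE) for C2 to 10.21 ± 0.63 for C6, and the median was 8.70, against 0.00 over all genes. Between control livers and control macrophages, C3 was higher in liver by 7.39 ± 0.32 and Cfb by 2.00 ± 0.22, 7 members were lower in liver, most of all C1qb (-6.97 ± 0.27) and C3ar1 (-6.61 ± 0.25), and C2 did not pass the fold threshold (-0.57 ± 0.19, edgeR adjusted p = 0.03). All 3 control livers but 1 of the 3 control macrophage libraries held the female transcript Xist at over 1 CPM, and with Xist as a covariate C2 was called lower in liver (-1.15 ± 0.19, edgeR adjusted p = 0.0046). There 60.4% of all genes were called, 33.5% higher and 26.9% lower, and the median of all genes was 0.23. Mean levels in macrophages were 36.6 times the liver level for C6, 70.9 times for C1qa, 95.4 times for Vsig4, 103 times for Cfp and 142 times for C1qb. For C6 the control livers held 17.2 to 32.6 CPM. The only liver library with Y-linked counts, HSC-KO replicate 3, held 202 CPM, so the value for C6 may depend on the livers used. All 10 members were higher in control livers than in control ECs, where 59.9% of all genes were called, 33.3% higher and 26.6% lower, and the median of all genes was 0.16.

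The level of each member in ECs was set against its level in macrophages, beside the same share for genes that define macrophages. The 5 macrophage-defining genes stood in control ECs at 0.104% of their summed level in control macrophages, and each of them at 0.0722 to 0.115%. C6 (0.0896%) and Vsig4 (0.0984%) lay within that range. Cfp (0.132%), C1qc (0.158%), C1qa (0.196%), C3ar1 (0.331%) and C1qb (0.349%) lay above every one of the defining genes. C2 (9.79%), C3 (8.81%) and Cfb (6.18%) lay far above it. In HSC-KO ECs the defining genes stood at 0.0330% of the level in HSC-KO macrophages, each of them at 0 to 0.0838%, C1qa at 0.0190%, C1qc at 0.0271%, C1qb at 0.0287% and C6 at 0.0716%. C3ar1 (0.190%) and Cfp (0.464%) lay above every one of the defining genes there. C2 stood at 10.2% and C3 lay higher still, whereas Cfb in ECs was at 211% of the macrophage level.

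**Figure D2:**
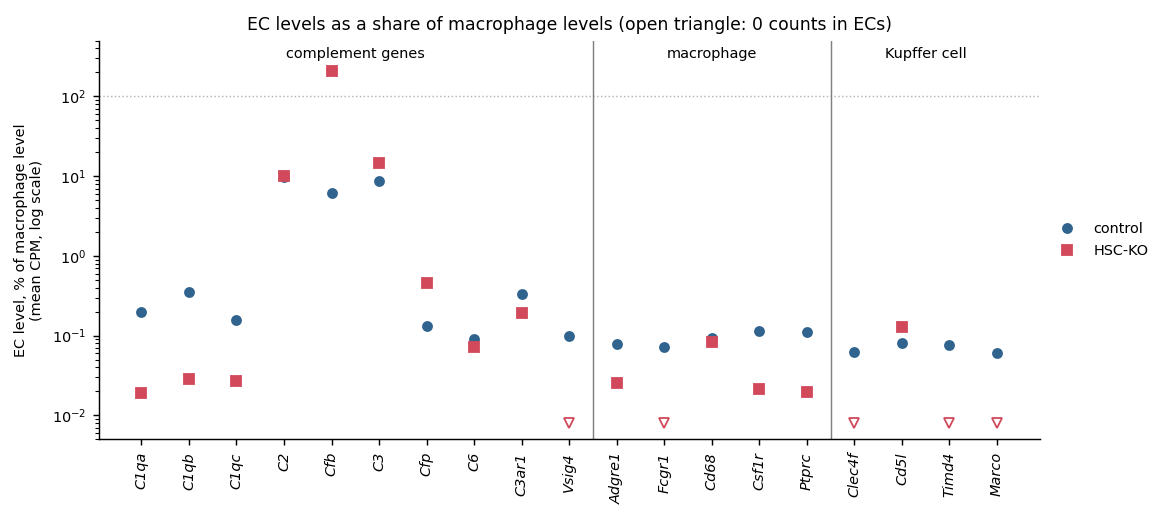
Mean level in ECs as a percentage of the mean level in macrophages of the same genotype (log axis), for the complement genes, the 5 macrophage-defining genes and 4 Kupffer cell genes; circles are control and squares HSC-KO, and open triangles mark 0 counts in HSC-KO ECs. In controls C6 and Vsig4 sit among the macrophage-defining genes, the C1q genes, Cfp and C3ar1 above them (0.132 to 0.349%) and C2, C3 and Cfb highest. In HSC-KO mice Cfp (0.464%) and C3ar1 (0.190%) lie above the macrophage genes, and Cfb at 211%.

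C3 in the macrophage libraries was set against the hepatocyte markers found there. The liver level came from HSC-KO livers for HSC-KO macrophages and from control livers for all others. The Smad4 experiment had no livers, so its shares rest on control livers of the Gdf2/Bmp10 experiment. Those livers were from mice aged 12 weeks and held no Y-linked counts, whereas the Smad4 experiment's macrophages did. When the liver level of C3 was scaled by the summed hepatocyte markers of each macrophage library (0.145 to 0.705% of the liver sum), the scaled level amounted to 33.6–108% of the measured C3 in control macrophages, 60.4–104% in HSC-KO macrophages, 58.2–141% in Smad4FF and 90.7–187% in Smad4 cKO macrophages. For Cfb the same share was 0.830 to 17.2%, for C2 0.148 to 1.87% and for C6 at most 0.279%.

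**Figure D3:**
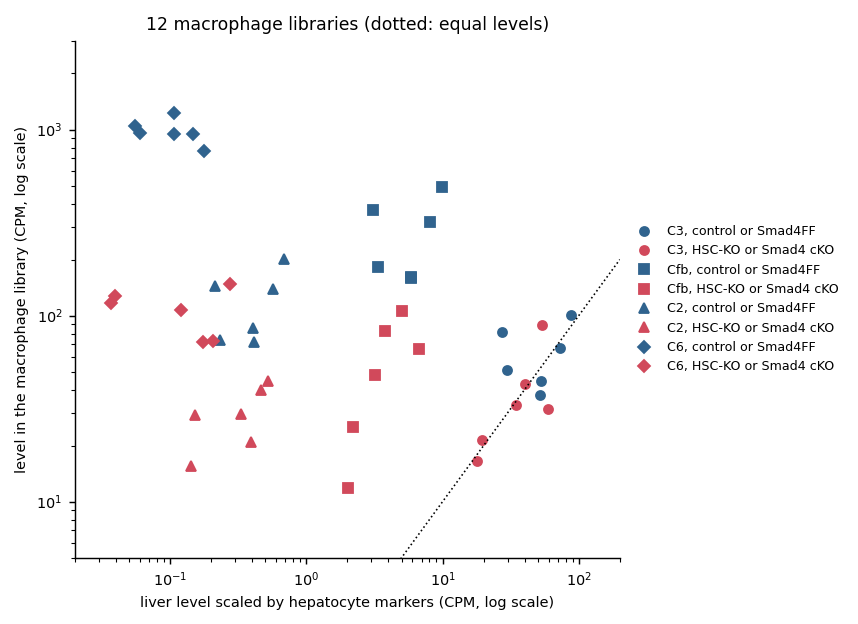
Level of C3, Cfb, C2 and C6 in each of the 12 macrophage libraries (vertical, CPM) against the liver level scaled by the library's hepatocyte markers (horizontal, CPM), both on log axes; blue marks control and Smad4FF, red HSC-KO and Smad4 cKO libraries. The C3 points lie around the dotted line of equal levels, and the points of the other 3 genes lie above it.

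Across the 4 comparisons of mutants with their controls, 5 of the 10 members fell in HSC-KO macrophages, where 5.34% of 16337 genes tested were called lower, 6.32% higher and 11.7% at all. In Smad4 cKO macrophages 6 members fell, where 2.67% of 17517 genes were called lower, 2.76% higher and 5.43% at all. In HSC-KO ECs 5 members fell and 1 rose, where 6.01% of 16053 genes were called lower, 7.68% higher and 13.7% at all, and in HSC-KO livers 5 fell, where 1.45% of 17118 genes were called lower, 1.03% higher and 2.48% at all. The median log2 fold change of the members was -1.56, -1.27, -2.80 and -0.95 in these comparisons, against 0.04, 0.04, 0.00 and -0.01 over all genes tested. The EC median of -2.80 stayed the same with Vsig4, which had 0 counts in HSC-KO ECs, placed at its bound. The number of members whose groups did not overlap was 8, 8, 8 and 7, against 40.3%, 29.4%, 40.4% and 19.7% of all genes tested. These counts of overlap used CPM scaled by TMM, edgeR's library scaling, and on the CPM printed here C1qb also overlapped in the Smad4 experiment, which leaves 7 there. Cell type markers moved in the same libraries. In HSC-KO macrophages the Kupffer list fell from 32100–38100 to 6170–7280 CPM in sum, and the monocyte list rose from 187–247 to 1580–2330 CPM. The sums moved in the same directions in Smad4 cKO macrophages. Their part in the falls of the members was not tested.

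**Figure D4:**
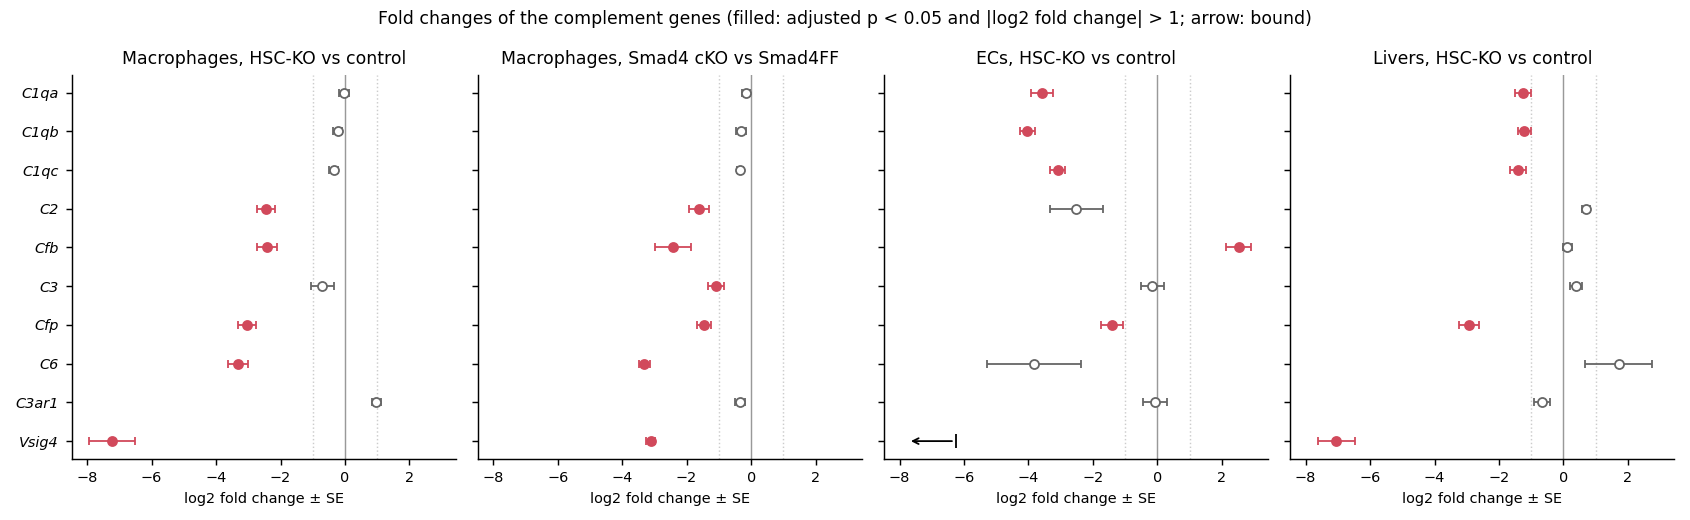
Log2 fold change with its standard error for each complement gene in the 4 comparisons of 3 mutant with 3 control libraries; filled points passed both thresholds, dotted lines mark a log2 fold change of 1 in either direction, and the arrow gives the bound for Vsig4 in ECs. Vsig4 and Cfp lie left of zero in all 4 panels, the C1q genes only in ECs and livers beyond the threshold, and Cfb lies on opposite sides in macrophages and ECs.

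The C1q genes, which encode the chains of the recognition molecule, passed the test in macrophages of neither mutant. C1qa stood at 3534, 3436 and 3414 CPM in control macrophages, and HSC-KO libraries held 3299, 4003 and 3508 CPM, a log2 fold change of -0.03 ± 0.14 (edgeR adjusted p = 0.92). The groups overlapped for C1qa. C1qb (-0.22 ± 0.14, edgeR adjusted p = 0.34) and C1qc (-0.35 ± 0.13, edgeR adjusted p = 0.11) lay lower in every HSC-KO library than in every control library but passed neither threshold.

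In Smad4 cKO macrophages the C1q genes did not pass either. The log2 fold changes were -0.15 ± 0.13 for C1qa, -0.32 ± 0.15 for C1qb and -0.34 ± 0.10 for C1qc (edgeR adjusted p = 0.57, 0.27 and 0.1). C1qc stood at 6126, 6411 and 6149 CPM in Smad4FF and at 5606, 5241 and 5580 CPM in Smad4 cKO macrophages, without overlap.

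In ECs and livers, by contrast, all 3 C1q genes fell. In ECs C1qb stood at 29.6, 20.9 and 22.1 CPM in control libraries and at 1.47, 1.54 and 2.45 CPM in HSC-KO libraries, a log2 fold change of -4.03 ± 0.23 (edgeR adjusted p = 7e-05). C1qa changed by -3.58 ± 0.33 and C1qc by -3.09 ± 0.24 (edgeR adjusted p = 0.00042 and 0.00021), and none of the 3 overlapped between the groups. The macrophage-defining genes moved with them, from 7.12–11.7 to 1.40–3.16 CPM in sum, with Csf1r called lower among the 4 that could be tested and Fcgr1 at 0 counts in every HSC-KO EC library. Their part in the fall of C1q in ECs was not tested.

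In livers C1qa stood at 40.4, 59.1 and 47.0 CPM in control libraries and at 20.6, 23.6 and 13.2 CPM in HSC-KO libraries, a log2 fold change of -1.25 ± 0.24. C1qb changed by -1.22 ± 0.20 and C1qc by -1.41 ± 0.26 (edgeR adjusted p = 0.038, 0.024 and 0.035 in the order C1qa, C1qb, C1qc). No liver library of one group reached into the other. These calls were sensitive to single libraries: they were lost for all 3 genes when control replicate 2 or 3 or HSC-KO replicate 1 or 2 was left out (edgeR adjusted p = 0.05 to 0.14), and without control replicate 1 for C1qa and C1qc (0.062 and 0.064). The call of C1qa was also lost when all genes with a count were tested (edgeR adjusted p = 0.052).

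The genes that define macrophages were lower in sum in HSC-KO livers. Of these 5 genes 2 were called lower and 3 were not called, while the groups overlapped for none of them. Not every transcript abundant in macrophages was lower. Fcna, with 6630–8530 CPM in control macrophages, ranged over 34.3–68.4 CPM among the control livers and over 47.9–73.3 CPM among the mutant ones. The 5 macrophage-defining genes summed to 110, 189 and 154 CPM in controls and 40.1, 51.5 and 33.5 CPM in HSC-KO livers, so that HSC-KO livers held 27.6% ± 6.02 (SD, n = 3) of the control mean. The C1q genes stood at 34.8% ± 11.3 (C1qc) to 39.9% ± 9.22 (C1qb) of theirs. In whole tissue and in sorted pools, fewer cells of a type and less RNA per cell cannot be told apart, and the part of macrophage number in the liver values was not tested.

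**Figure D5:**
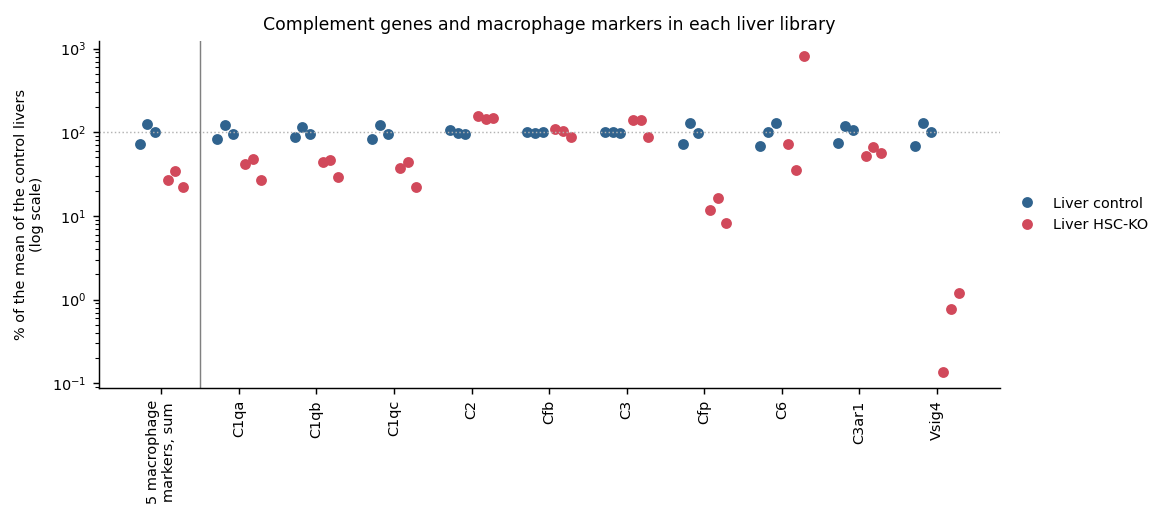
Level in each liver library as a percentage of the mean of the 3 control livers (log axis), for the sum of 5 macrophage-defining genes and for each complement gene; blue marks control and red HSC-KO libraries. The C1q genes lie near the macrophage markers in HSC-KO livers, Cfp and Vsig4 below them, C2, C3 and Cfb around or above 100%, and C6 of HSC-KO replicate 3 at 805%.

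C2, the protease of the classical convertase, fell in macrophages of both mutants. It stood at 145, 139 and 201 CPM in control libraries and at 29.5, 20.8 and 44.6 CPM in HSC-KO macrophages (log2 fold change -2.45 ± 0.29, edgeR adjusted p = 0.0013). In the Smad4 experiment it stood at 72.5, 85.5 and 73.7 CPM in Smad4FF and at 29.2, 39.8 and 15.5 CPM in Smad4 cKO macrophages (-1.61 ± 0.31, edgeR adjusted p = 0.022). The groups did not overlap in either experiment. The call in Smad4 cKO macrophages was lost without any single Smad4FF library or without Smad4 cKO replicate 1 (edgeR adjusted p = 0.059 to 0.089).

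In ECs C2 stood at 26.9, 7.34 and 13.2 CPM in control libraries and at 7.34, 1.26 and 1.06 CPM in HSC-KO libraries. HSC-KO replicate 1 was the highest of its group, and the difference of -2.51 ± 0.81 did not pass (edgeR adjusted p = 0.069), while without that library it was -4.04 ± 0.55 and passed (0.0025). In livers C2 went the other way, at 103, 94.3 and 92.9 CPM in controls and 151, 140.0 and 144 CPM in HSC-KO libraries. The 2 groups of livers did not overlap, and the log2 fold change of 0.70 ± 0.11 passed the adjusted p (edgeR, 0.021) but not the fold threshold.

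Cfb, which encodes the protease of the alternative convertase, fell in macrophages and rose in ECs. In macrophages it stood at 371, 317 and 491 CPM in control libraries and at 47.9, 82.5 and 106 CPM in HSC-KO libraries (-2.41 ± 0.31, edgeR adjusted p = 0.0017). In Smad4FF macrophages it stood at 161, 160 and 183 CPM, and in Smad4 cKO macrophages at 25.1, 66.5 and 11.8 CPM (-2.43 ± 0.56, edgeR adjusted p = 0.042). The groups did not overlap, and Smad4 cKO replicate 2, the highest of its group, also held the highest hepatocyte sum of that group (663 CPM against 217 and 202). This call was lost without any single Smad4FF library or without Smad4 cKO replicate 1 (edgeR adjusted p = 0.095 to 0.15).

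In ECs Cfb stood at 36.4, 17.5 and 18.9 CPM in control libraries and at 250, 109 and 140.0 CPM in HSC-KO libraries, a log2 fold change of 2.52 ± 0.38 (edgeR adjusted p = 0.0036). Every HSC-KO EC library lay above every control library, and HSC-KO ECs held more Cfb than HSC-KO macrophages in each of their 3 libraries. The hepatocyte list summed to 56.2–124 CPM in controls and 51.5–86.9 CPM in HSC-KO ECs, and the macrophage-defining genes were lower there, as given above. The monocyte list was higher in HSC-KO ECs, summing to 10.4–12.1 CPM in controls and 91.6–125 CPM in HSC-KO libraries. Of its 8 genes 5 could not be tested, and 2 of the 3 tested were called higher. In each HSC-KO EC library 3 or 4 of the 8 had 0 counts, so the sum rests on few genes. The part of this list in the level of Cfb was not tested. In livers, where most Cfb was found, control libraries held 1426, 1364 and 1395 CPM and HSC-KO libraries 1540, 1459 and 1221 CPM, overlapping and with a log2 fold change of 0.12 ± 0.14 (edgeR adjusted p = 0.81).

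C3, the component that both convertases cleave, was called in Smad4 cKO macrophages only. It stood at 44.4, 37.2 and 51.1 CPM in Smad4FF and at 21.4, 31.6 and 16.6 CPM in Smad4 cKO macrophages (-1.08 ± 0.25, edgeR adjusted p = 0.041). The groups did not overlap, but the summed hepatocyte markers were 588, 586 and 333 CPM in the first group and 217, 663 and 202 CPM in the second. With the hepatocyte sum as a covariate the log2 fold change was -0.95 ± 0.24 (edgeR adjusted p = 0.072), and the call was lost without any single library of the comparison except Smad4 cKO replicate 2. It was also lost when libraries were scaled by size alone (edgeR adjusted p = 0.061) or all 12 macrophage libraries were fitted together (0.066).

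In HSC-KO macrophages C3 stood at 33.0, 43.0 and 89.5 CPM against 81.7, 67.2 and 102 CPM in control libraries, and the groups overlapped (-0.70 ± 0.35, edgeR adjusted p = 0.21). Without HSC-KO replicate 3 the log2 fold change was -1.21 ± 0.23 and passed (edgeR adjusted p = 0.018), as it did with Xist as a covariate (-1.07 ± 0.29, edgeR adjusted p = 0.047). In ECs C3 was low in both groups, 4.20 to 8.99 CPM in controls and 6.24 to 11.6 CPM in HSC-KO libraries (-0.15 ± 0.37, edgeR adjusted p = 0.83). In livers it stood at 12480, 12450 and 12310 CPM in control libraries and at 17200, 17260 and 10960 CPM in HSC-KO libraries, where replicate 3 lay below and the others above every control (0.40 ± 0.19, edgeR adjusted p = 0.45).

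Cfp, which encodes properdin, fell in all 4 comparisons. In macrophages it stood at 3510, 3374 and 3844 CPM in control libraries and at 407, 322 and 680 CPM in HSC-KO libraries (-3.03 ± 0.28, edgeR adjusted p = 4e-04). In the Smad4 experiment it stood at 4527, 6190 and 4015 CPM in Smad4FF and at 2223, 1515 and 2287 CPM in Smad4 cKO macrophages (-1.45 ± 0.22, edgeR adjusted p = 0.0086). In neither experiment did the groups overlap.

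In livers Cfp stood at 25.2, 44.9 and 33.6 CPM in control libraries and at 4.11, 5.67 and 2.88 CPM in HSC-KO libraries (-2.93 ± 0.30, edgeR adjusted p = 0.0035), or 12.2% ± 4.04 of the control mean. In ECs it was low, at 5.34, 2.80 and 5.97 CPM in controls and 1.83, 1.99 and 2.70 CPM in HSC-KO libraries (-1.41 ± 0.33, edgeR adjusted p = 0.022). No groups overlapped, but the EC call was lost without any single library except control replicate 2 (edgeR adjusted p = 0.051 to 0.075) and with scaling by library size alone (0.055).

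C6, a component of the membrane attack complex, fell in macrophages of both mutants by nearly the same amount. It stood at 1049, 943 and 764 CPM in control libraries and at 71.7, 73.3 and 148 CPM in HSC-KO macrophages (-3.32 ± 0.30, edgeR adjusted p = 0.00038). In the Smad4 experiment it stood at 947, 1218 and 963 CPM in Smad4FF and at 128, 107 and 117 CPM in Smad4 cKO libraries (-3.31 ± 0.16, edgeR adjusted p = 7.1e-05). In both experiments every mutant library lay far below every control library.

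In ECs C6 was near the floor, with 81, 87 and 24 counts in control libraries and 14 counts in HSC-KO replicate 2 and 0 in the others, and the difference did not pass (edgeR adjusted p = 0.11). Without HSC-KO replicate 2, which leaves 0 counts in that group, it passed (edgeR adjusted p = 0.019). In livers C6 stood at 17.2, 25.5 and 32.6 CPM in control libraries and at 18, 8.99 and 202 CPM in HSC-KO libraries. The library at 202 CPM, with 15089 counts, is HSC-KO replicate 3, the liver library with Y-linked counts, and the groups overlapped (1.71 ± 1.03, edgeR adjusted p = 0.59). Without it the log2 fold change was -0.78 ± 0.38 and, with Xist as a covariate, -0.89 ± 0.42 (edgeR adjusted p = 0.43 and 0.41). In these livers sex and that library cannot be told apart.

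C3ar1, the C3a receptor, was the member that was higher in HSC-KO macrophages. It stood at 474, 431 and 462 CPM in control libraries and at 910.5, 1077 and 846 CPM in HSC-KO libraries, without overlap. The log2 fold change of 0.97 ± 0.14 passed the adjusted p (edgeR, 0.0033) and fell just short of the fold threshold, which it passed without HSC-KO replicate 3 (1.06 ± 0.15) or when libraries were scaled by size alone (1.05 ± 0.13). Monocyte transcripts were higher in the same libraries: 5 of the 7 tested genes of the monocyte list were called higher and 1 lower, the list summing to 187–247 CPM in controls and 1580–2330 CPM in HSC-KO macrophages, and 6 of 8 T and NK cell genes were called higher, with sums of 14.3–39.4 and 175–313 CPM. Their part in the level of C3ar1 was not tested.

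In Smad4 cKO macrophages C3ar1 stood at 200.3, 178 and 241 CPM against 243, 257 and 205 CPM in Smad4FF libraries, and the groups overlapped (-0.34 ± 0.15, edgeR adjusted p = 0.25). The monocyte list was higher there too, at 697–989 CPM against 172–225 CPM in sum, but with 1 of 8 genes called higher and 2 lower. In ECs C3ar1 was 1.04 to 1.87 CPM in controls and 1.60 to 2.05 CPM in HSC-KO libraries (-0.06 ± 0.37, edgeR adjusted p = 0.94). In livers it was 3.07 to 4.86 CPM in controls and 2.11 to 2.75 CPM in HSC-KO libraries, without overlap (-0.68 ± 0.25, edgeR adjusted p = 0.3).

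Vsig4, the C3b receptor of Kupffer cells, had the most negative fold change of the members in both macrophages of HSC-KO mice and livers. In macrophages it stood at 3430, 3486 and 3561 CPM in control libraries and at 16.4, 8.23 and 50.8 CPM in HSC-KO libraries (-7.22 ± 0.72, edgeR adjusted p = 0.00059). In Smad4FF macrophages it stood at 2767, 3150 and 2761 CPM and in Smad4 cKO macrophages at 364, 349.5 and 399 CPM (-3.12 ± 0.13, edgeR adjusted p = 4.7e-05). Every mutant library lay below every control library, and the Smad4 cKO libraries lay above every HSC-KO library.

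In livers Vsig4 stood at 25.4, 47.6 and 36.8 CPM in control libraries and at 0.0503, 0.283 and 0.442 CPM in HSC-KO libraries (-7.05 ± 0.58, edgeR adjusted p = 0.0014), or 0.706% ± 0.540 of the control mean. In ECs it had 368, 239 and 218 counts in control libraries and 0 counts in all 3 HSC-KO libraries. Measured against a floor of 3 counts per library (0.0450 CPM), the mean of 3.44 CPM in control ECs makes Vsig4 at least 76.4-fold lower in HSC-KO ECs. Genes of the Kupffer list moved with it, with 5 of 10 tested called lower in each macrophage experiment, 7 of 9 in ECs and 7 of 10 in livers. This list shares Adgre1, Csf1r, Fcgr1 and Cd68 with the macrophage-defining genes, so the lists are not independent. The Kupffer list summed to 32100–38100 CPM in control libraries and 6170–7280 CPM in HSC-KO macrophages, to 26500–32700 and 6170–7360 CPM in Smad4FF and Smad4 cKO macrophages, to 353–425 and 69.2–129 CPM in ECs and to 444–734 and 135–147 CPM in livers. The part of Kupffer cell number in the level of Vsig4 was not tested.

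The HSC-KO macrophage library with the highest Vsig4, Cfp, C6, C2, C3 and Cfb was replicate 3 for each of these genes. By the animal codes it came from the same mouse as HSC-KO EC replicate 1, which held the highest C2, C3 and Cfb of the HSC-KO ECs. Leaving out this macrophage library kept all 5 calls of HSC-KO macrophages and added C3 and C3ar1.

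Whether the fold changes of the 2 macrophage experiments differed was tested over the 12 macrophage libraries, where 2.61% of all genes were called, 1.42% higher and 1.18% lower. Vsig4 fell by 4.06 ± 0.66 more on the log2 scale in HSC-KO than in Smad4 cKO macrophages (edgeR adjusted p = 0.0086), and C3ar1 was higher by 1.36 ± 0.21 (edgeR adjusted p = 0.0068). For Cfp the difference of -1.53 ± 0.37 narrowly missed (edgeR adjusted p = 0.051). The other 7 members did not pass, with differences of 0.03 ± 0.34 for C6, 0.07 ± 0.68 for Cfb, 0.04 ± 0.15 for C1qc and -0.79 ± 0.46 for C2 among them.

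The difference between macrophages and ECs of HSC-KO mice, with the same control libraries as above and 12.3% of all genes called (6.32% higher and 6% lower), was called for 5 members. The fold changes of C1qa, C1qb and C1qc were more positive in macrophages by 3.55 ± 0.33, 3.82 ± 0.27 and 2.76 ± 0.24 (edgeR adjusted p = 5.5e-05, 1.2e-05 and 4.3e-05). The macrophage-defining genes moved the same way, with 3 of 5 called higher and a median of 2.61, against 0.06 over all genes. Their part in the C1q difference was not tested. The fold changes of Cfb and Cfp were more negative in macrophages by -4.92 ± 0.57 and -1.61 ± 0.43 (edgeR adjusted p = 0.00023 and 0.026). C3ar1 (1.03 ± 0.32, edgeR adjusted p = 0.055) did not pass, but it was called in 3 of 19 alternatives. The 3 mice that gave both kinds of library were treated as independent in this fit, which makes its p-values approximate, and the call of Cfp is close to the threshold. For Vsig4 no fold change was set against its 0 counts in HSC-KO ECs.

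Of 50 other complement genes, 44 could be tested in HSC-KO macrophages, and 4 were called higher and 6 lower. Of all genes tested there, 6.32% were called higher and 5.34% lower. Cd93, once proposed as a C1q receptor, rose from 14.6–25.6 to 740–1300 CPM (5.60 ± 0.32), and Itgax, a chain of complement receptor 4, rose by 2.94 ± 0.42. Colec12 (-4.20 ± 0.80), the lectin pathway ficolin Fcna (-3.73 ± 0.41) and the membrane inhibitors Cd59a (-2.57 ± 0.56) and Cd55 (-2.51 ± 0.35) fell. Transcripts of other cells moved in the same libraries. The 5 genes that define ECs summed to 246–333 CPM in control macrophages and 9.61–32.9 CPM in those of HSC-KO mice, with 2 of 5 called lower, and control ECs held 442–545 CPM of Cd59a and 547–721 CPM of Cd55. The dendritic cell list, which includes Itgax, summed to 9.33–20.3 and 41.9–90.1 CPM with 3 of 8 called higher, and the B cell list to 76.8–110 and 546–748 CPM with 2 of 6 called higher. Their part in these changes was not tested.

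In Smad4 cKO macrophages 2.76% of all genes tested were called higher and 2.67% lower. Of 45 other complement genes 1 rose there, the C5a receptor C5ar1 (2.08 ± 0.29), and 3 fell, Colec12 (-2.65 ± 0.35), Itgam (-1.62 ± 0.29) and C4b (-1.10 ± 0.27). Itgam has 2 entries in the tables, and C4b has a near-identical copy, so their counts are uncertain. Leaving out 1 library gave 2 (without Smad4 cKO replicate 1) to 5 such calls in place of 4. C5ar1 rose in HSC-KO macrophages as well (74.3–134 to 219–460 CPM, 1.46 ± 0.33), and the Itgam entry that fell in Smad4 cKO macrophages rose there (43.8–56.7 to 137–151 CPM, 1.47 ± 0.12). The difference between the 2 experiments was not called for C5ar1 (-0.57 ± 0.47, edgeR adjusted p = 0.61), was not tested for Itgam, and was called for Cd93 (3.89 ± 0.68) and Fcna (-3.28 ± 0.46).

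In HSC-KO ECs 7.68% of all genes tested were called higher and 6.01% lower. Of 37 other complement genes 1 rose there, Cd93 (1.46 ± 0.25), and 11 fell. Among these, the regulators Cd55 (547–721 to 8.10–96 CPM, -4.26 ± 1.00), Cd59b (-2.07 ± 0.22) and Cd59a (-2.02 ± 0.23) restrain complement, whereas Masp1 (-4.26 ± 0.57) and Hc, which encodes C5 (-3.12 ± 0.86), promote it. C5ar2, a C5a receptor, stood at 791, 710 and 652 CPM in control ECs and at 160.1, 6.63 and 9.67 CPM in HSC-KO ECs without passing in ECs alone (-3.86 ± 1.19, edgeR adjusted p = 0.059). The difference of its fold changes between macrophages and ECs passed (4.51 ± 1.33, edgeR adjusted p = 0.041), as did those of Cd93 (4.16 ± 0.41), Calr (1.25 ± 0.26), Colec12 (-4.82 ± 0.89) and Fcna (-2.21 ± 0.53).

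In HSC-KO livers 1.03% of all genes tested were called higher and 1.45% lower. Of 47 other complement genes 2 rose there, the terminal component C7 (0.80–1.15 to 3.48–6.99 CPM, 2.46 ± 0.34) and Cd93 (1.63 ± 0.24), and 1 fell, Cd55 (16.8–19.2 to 0.147–0.60 CPM, -5.74 ± 0.50). Without control replicate 2 only 1 of these genes was called in place of 3, and DESeq2 called 7. The median log2 fold change of the other complement genes was -0.75 in HSC-KO macrophages, -0.24 in Smad4 cKO macrophages, -0.66 in ECs and 0.10 in livers. The called share of the members was higher than that of these genes in each comparison, but the members and the list were chosen with results known, so no test was made of it.

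Across the 24 libraries, the genes whose log2 CPM followed a member most closely were named among 20858 genes. For Vsig4 these were Timd4 (Pearson's r = 0.972), Marco (0.970) and Pcolce2 (0.967), and for C1qa they were C1qc (0.997), Cd300c2 (0.996) and Igsf6 (0.996). C6 was followed by Acp5 (0.956), Pak1 (0.945) and Dock10 (0.944), C3 by Pzp (0.993), Gpt2 (0.991) and Alb (0.991), and C3ar1 by Plek (0.993), Fam49b (0.991) and Milr1 (0.990). These values describe libraries of 3 kinds of sample and share each library's depth.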

How the data were processed

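The labels name a Hieff NGS Ultima library kit, whereas the study's methods name an Illumina kit. Per the labels and methods, the authors used FastQC for read quality, HISAT2 for alignment against mm10 (GRCm38) and featureCounts for counting. What they deposited are unnormalized whole-number counts per gene, in 4 tables. Tool versions, annotation release, strand setting and treatment of shared reads are not given in the sources used here, so genes that overlap or have near-identical copies may share reads. Libraries were grouped by their labels, each table column was matched to its sample by name, and 0 columns were left unmatched. The columns of the EC table are named LSEC where the labels say EC. Nothing states that libraries of a group came from separate litters or sort days, so p-values measure the spread between these libraries.

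In R 4.3.3, each comparison used its own 6 libraries, or 12 for a difference of fold changes. Genes were kept by filterByExpr (edgeR 4.0.16, with limma 3.58.1) at a count of 10 and a total of 15, libraries were scaled by TMM, and glmQLFit and glmQLFTest gave p-values that were adjusted by Benjamini-Hochberg over all genes tested. Calls needed an adjusted p under 0.05 together with a log2 fold change beyond 1. The SE is the log2 fold change divided by the square root of F. Printed CPM use library totals without TMM, exon lengths are unions of GENCODE vM21 exons, and promoters are from RefSeq. An exact permutation test of 3 against 3 libraries cannot go below p = 0.1, so none was used. The floor of 3 counts covers counting error only. The fits were also run on simulated data with the same dispersion for all genes, which cannot stand for the spread of these libraries. Replicates differed by more than sampling noise.

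All 10 members were named. Of 50 other complement genes, at most 6 called genes per comparison were named, by size of fold change and with a mean of at least 1 CPM, and C5ar2 and Cd93 in ECs and C5ar1 and Itgam in HSC-KO macrophages were chosen after their values were seen. A gene that this rule names is not reported here. The members and lists were chosen with earlier results of these data known. Replicate numbers, shared between groups, did not pair the samples (correlations of -0.11 to 0.16). DESeq2 1.42.0, other scalings and filters, covariates, a replicate block and leaving out each library were the alternatives. Python 3.11.15 and matplotlib 3.10.9 were used for annotation and figures.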

Additional observations from a re-analysis of the deposited data

Results flagged for a closer look

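The 7 results here were singled out because a test of the difference itself passed between 2 comparisons of the same kind. Between the macrophage experiments, HSC-KO minus Smad4 cKO, the log2 fold changes differed by 1.36 for C3ar1 and by -4.06 for Vsig4. Between cell types of HSC-KO mice, macrophages minus ECs, they differed by 3.55 for C1qa, 3.82 for C1qb, 2.76 for C1qc, -4.92 for Cfb and -1.61 for Cfp. The C1q genes share this direction with the macrophage-defining genes, of which 3 of 5 were called higher in the same difference. The value for Cfp passed by the smallest margin of these 7 (edgeR's quasi-likelihood test, adjusted p = 0.026) and was lost without control macrophage replicate 3, HSC-KO macrophage replicate 1 or 2 or HSC-KO EC replicate 3 (adjusted p = 0.056 to 0.066). With 3 libraries a group, single libraries were not tested for standing apart.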

How the results depend on the processing

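Of 1315 fold changes of the members under an alternative, 1202 kept their direction and side of the thresholds, 45 lost the call, 23 gained it and 45 changed sign, and all 45 sign changes were of values called in neither fit. Depth was high, and 3 libraries a group limit the precision. With the replicate block, which the numbers do not justify since they do not pair the samples, 3 members were called in Smad4 cKO macrophages in place of 6, as Cfb and Cfp (edgeR adjusted p = 0.05) and C3 (0.1) were lost, and C1qa was lost in livers (0.051). Leaving out 1 library gave 3 to 6 members called in that comparison (3 without any Smad4FF library or Smad4 cKO replicate 1) and 2 to 5 in livers (2 without control replicate 2 or 3 or HSC-KO replicate 1 or 2, and 3 without control replicate 1). Of the other complement genes, leaving out 1 library gave 2 to 5 calls in Smad4 cKO macrophages in place of 4 (2 without Smad4 cKO replicate 1) and 1 to 3 in livers in place of 3 (1 without control replicate 2, and 7 by DESeq2). The difference between the macrophage experiments gave 2 to 6 in place of 2, with 6 by DESeq2, 5 without control replicate 1 and 4 without HSC-KO replicate 3. Scaling by library size alone gave 0.06 for C1qa in HSC-KO macrophages, 0.13 for C3 and 0.25 for C3ar1 in ECs, -0.07 for C1qc, -0.08 for C6 and -0.04 for Cfb in the difference between the macrophage experiments, and -0.07 for C2 in that between macrophages and ECs. DESeq2 and its size factors in edgeR both gave -0.02 for C1qc and -0.03 for C6 in the macrophage difference, and the block gave -0.05 for C6. With Xist as a covariate, C3ar1 in ECs was 0.14, C6 in livers -0.89, and C6 and Cfb in the macrophage difference -0.11 and -0.31. Leaving out 1 library gave -0.12 to 0.03 for C1qa in HSC-KO macrophages, -0.54 to 0.06 for C3 and -0.30 to 0.15 for C3ar1 in ECs, and -0.78 to 2.24 for C6 in livers. In the macrophage difference it gave -0.02 to 0.24 for C1qb, -0.05 to 0.07 for C1qc, -0.08 to 0.72 for C3, -0.37 to 0.21 for C6 and -0.34 to 0.97 for Cfb, and between macrophages and ECs -0.48 to 1.61 for C2 and -0.06 to 5.78 for C6. Calls lost under other settings were Cfp in ECs (0.055) and C3 in Smad4 cKO macrophages (0.061) with library size alone, C3 there also with all 12 macrophage libraries (0.066) and the hepatocyte covariate (0.072), and C1qa in livers with all genes with a count (0.052). With Xist, C3 in HSC-KO macrophages (-1.07, 0.047) and C2 in control livers against control macrophages (-1.15, 0.0046) were gained. The cause of these changes was not tested. In ECs C2 was called by DESeq2 (adjusted p = 0.042), with the block (0.0099) and with Xist (0.039), and C6 by DESeq2 (0.029) and without HSC-KO replicate 2 (0.019). The difference of Cfp between the macrophage experiments was called in 9 alternatives. The Xist covariate was not run for the Smad4 experiment, where Xist varied too little, and the hepatocyte covariate was chosen after seeing the data.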
